A study of Mus musculus with 12 samples.

Results

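This account covers the whole-lung RNA of a mouse study of lung mesenchyme, comparing lungs labelled as mutant with wild-type lungs. All whole-lung libraries of the series were taken, 6 of its 12 samples. The other 6, from vesicles shed by cultured cells, were not used here. The mutant-labelled group held 2 lungs, titled ColcreER; Tbx4flox/flox, and the wild-type group 4 lungs. Every lung came from an adult C57BL/6 mouse, was flash frozen as whole tissue and gave total RNA extracted with Trizol. Per the sample labels, the first group carried ColcreER, a creER being a Cre recombinase that tamoxifen switches on, and Tbx4flox/flox, a floxed allele being one that Cre can cut. The study's own design text instead names Tbx4creER; Ghrflox/flox mice, so both the creER and the floxed gene differ between these sources. The cells that express the Cre, any tamoxifen schedule, the floxed exons and the number of animals were not stated in the sources used here. Nothing in the labels says that the lungs came from separate animals, so p-values measure only the spread between these samples, which may be technical.

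Tbx4 is a T-box transcription factor of the embryonic and adult lung mesenchyme, the compartment of fibroblasts, pericytes and smooth muscle around airways and alveoli. Ghr encodes the growth hormone receptor, which signals through JAK2 and STAT5. Whole lung RNA mixes mesenchyme with epithelium, endothelium and blood cells. Fewer cells of a type and less RNA per cell therefore cannot be told apart in any value given here.

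The libraries were of even depth, between 42.7 and 44.8 megareads (M reads) assigned to genes, estimated from the step that 1 read makes in the deposited RPKM values (reads per kilobase of transcript per M mapped reads). Lung identity was plain in all 6. Sftpc, a surfactant protein of alveolar type 2 cells, had 13896 and 8967 RPKM in mutant-labelled lungs 1 and 2, against 12308, 10554, 13815 and 10397 RPKM in wild-type lungs 1 to 4. Scgb1a1, the club cell secretory protein, had 80766 and 43646 RPKM in the mutant-labelled lungs, against 43595, 51343, 48543 and 61259 RPKM in the wild-type lungs. Of 10 genes that mark thymus, oesophagus, thyroid or skin, 9 did not reach 1 RPKM in 2 libraries. Wild-type lungs 1 and 2 held Y-linked transcripts and the other 4 lungs did not: Ddx3y had 0.0228 and 0.0369 RPKM in the mutant-labelled lungs, against 20.6, 19.9, 0 and 0.0139 RPKM in the wild-type lungs. The X-linked partner genes went the other way in the same 2 lungs, with Kdm6a at 7.36 and 8.45 RPKM in the mutant-labelled lungs, against 4.24, 4.42, 8.35 and 8.26 RPKM in the wild-type lungs. Without wild-type lungs 1 and 2, 31 of 48 gene list medians changed sign or moved by over 1.5 times. So did 5 of the 77 gene differences examined, those of Tbx4, Ltf, Wnt5a, Actn2 and Ttn. Most of these 77 genes have both mutant-labelled lungs on 1 side of all wild-type lungs. Their sign could not change here, so the 2 shares are not comparable.

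The gene named in the labels did not separate the groups. Tbx4 (chr11:85699924-85729599, plus strand, mm9) had 20.9 and 36.8 RPKM in the mutant-labelled lungs, against 29.7, 26.1, 29.0 and 30.1 RPKM in the wild-type lungs. Mutant-labelled lung 1 was thus the lowest of the 6 and mutant-labelled lung 2 the highest. The fitted difference was −0.04 on the log2(RPKM + 1) scale (SE 0.20), −0.44 with lung 2 left out and 0.35 with lung 1 left out. Ghr (chr15:3267760-3533492, minus strand, mm9) had 9.83 and 12.9 RPKM in the mutant-labelled lungs, against 13.3, 12.7, 11.8 and 12.9 RPKM in the wild-type lungs. Only mutant-labelled lung 1 lay below every wild-type lung, and the fitted difference was −0.16 (SE 0.11), −0.34 with lung 2 left out and 0.02 with lung 1 left out. A value summed over a whole gene does not show whether single exons were lost, and a deletion confined to some cells of the lung would be diluted by the rest.

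Among 15 other tested T-box and mesenchymal transcription factors, 8 differed above 0 and 7 below, with a median of 0.01. For 0 of them did both mutant-labelled lungs lie on the same side of all wild-type lungs. For 7 of them the mutant-labelled lungs lay on opposite sides of all wild-type lungs, as did 20.4% of all genes, and in 5 of the 7 lung 2 was the high one. The growth hormone and IGF genes gave 6 of 18 above 0 and a median of −0.06, which was 0.02 with lung 1 left out. Among collagens, 4 of 18 lay above 0 with a median of −0.11. The list split the mutant-labelled lungs, with medians of −0.29 and 0.09 from the wild-type mean, so its sign turned with lung 1 left out. Col5a3, a minor fibrillar collagen, was the single collagen below all wild-type lungs in both mutant-labelled lungs, against 4.12% of all genes. It had 1.89 and 1.65 RPKM in the mutant-labelled lungs, against 2.47, 3.09, 2.30 and 2.52 RPKM in the wild-type lungs (log2 difference −0.37, SE 0.10). The abundant Col1a1 had 50.4 and 65.2 RPKM in the mutant-labelled lungs, inside the wild-type range of 55.6 to 66.0 RPKM for lung 2 and below it for lung 1.

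Across the 13701 genes reaching 1 RPKM in 2 or more of the 6 lungs, limma called 0 genes (0.0%) at an adjusted p under 0.05. The smallest adjusted p from limma was 0.364. At an unadjusted p under 0.05 there were 514 genes (3.75%), 348 higher (2.54%) and 166 lower (1.21%) in the mutant-labelled lungs. Median-ratio scaling of the libraries gave 526 such genes, of which 57.6% were higher, against 67.7% on the values as deposited. The median difference over all genes was 0.01 on the log2 scale and 55.7% of genes lay above 0. In 1027 genes (7.50%) both mutant-labelled lungs lay above all 4 wild-type lungs and in 565 (4.12%) below them, together 11.6%. Of these genes 64.5% were higher. Median-ratio scaling gave 814 higher (5.94%) and 773 lower (5.64%), of which 51.3% were higher, so the excess of higher genes depends on the scaling. Such genes are called separated in what follows. In 2795 genes (20.4%) the mutant-labelled lungs lay on opposite sides of all wild-type lungs, with lung 1 high in 861 (6.28%) and lung 2 high in 1934 (14.1%). No gene difference below passed the threshold, and each is given as a measured difference, on the log2(RPKM + 1) scale unless named otherwise. With 1 library left out, 20 of 77 gene differences changed sign or moved by over 1.5 times.

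**Figure D1:**
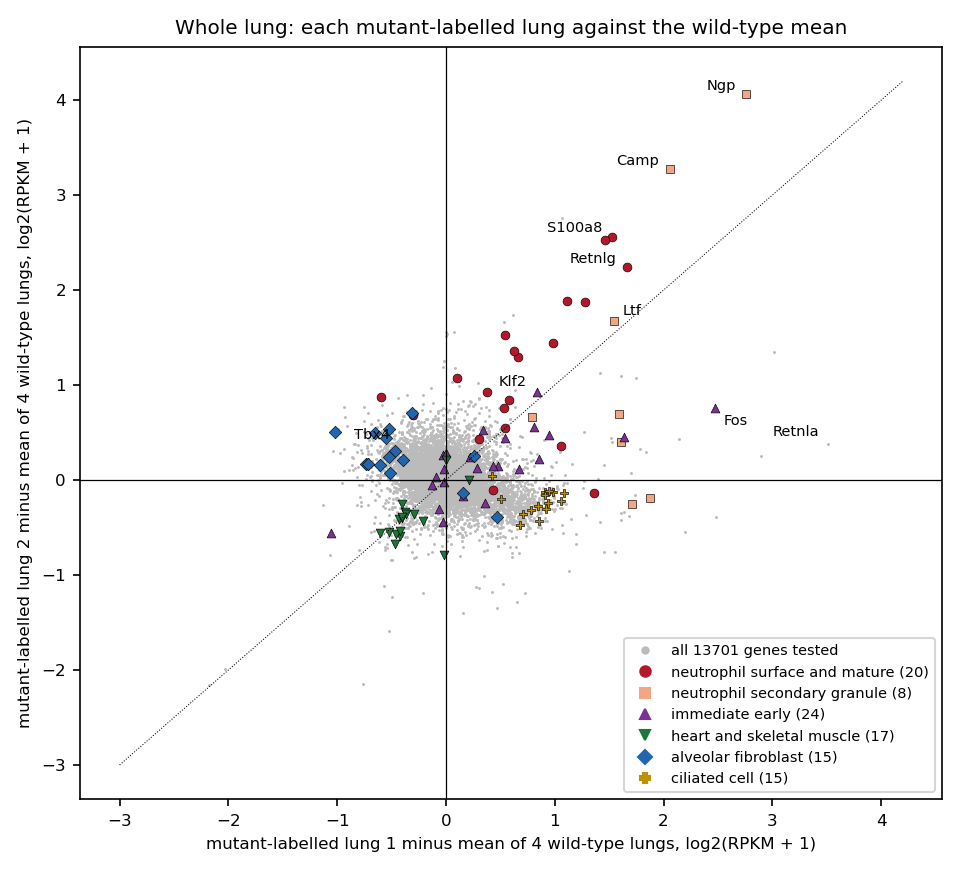
Difference of mutant-labelled lung 1 (horizontal axis) and mutant-labelled lung 2 (vertical axis) from the mean of the 4 wild-type lungs, in log2(RPKM + 1), for each of 13701 genes, with 6 gene lists in colour and the number of tested members in brackets. Neutrophil genes lie toward the upper right, heart and skeletal muscle genes toward the lower left, and ciliated cell and alveolar fibroblast genes on opposite sides of the vertical axis.

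The clearest set of higher genes belonged to neutrophils, the short-lived granulocytes that patrol lung capillaries and enter tissue on injury. They fill their granules in the bone marrow in stages: myeloperoxidase and proteases first, then lactoferrin and cathelicidin, then gelatinase. Surface receptors and cytosolic S100 proteins build up as the cells mature. The genes for the secondary granule proteins Ngp, Camp and Ltf lie near each other on chromosome 9. Their upstream bases are shown because these genes gave the largest differences of any granule genes in the comparison. The 250 bases before each annotated start are from RefSeq (GRCm38.p6), 5′ to 3′ on the gene's strand. Capitals mark TTGCNNAA or its reverse complement TTNNGCAA, the letters of a C/EBP-type site; C/EBP factors drive granulocyte development.
Ngp (chr9:110419558-110419807, plus strand): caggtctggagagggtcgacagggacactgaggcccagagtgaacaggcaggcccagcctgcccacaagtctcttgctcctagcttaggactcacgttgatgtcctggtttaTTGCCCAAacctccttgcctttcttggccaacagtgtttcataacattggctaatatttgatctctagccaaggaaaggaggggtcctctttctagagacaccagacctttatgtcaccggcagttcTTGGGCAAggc
Camp (chr9:109849457-109849706, minus strand): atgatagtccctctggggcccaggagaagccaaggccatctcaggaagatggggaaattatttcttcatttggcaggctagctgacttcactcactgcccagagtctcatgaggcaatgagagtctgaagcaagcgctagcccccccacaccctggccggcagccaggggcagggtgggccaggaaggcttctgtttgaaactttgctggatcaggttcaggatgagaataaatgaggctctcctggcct
Ltf (chr9:111019042-111019291, plus strand): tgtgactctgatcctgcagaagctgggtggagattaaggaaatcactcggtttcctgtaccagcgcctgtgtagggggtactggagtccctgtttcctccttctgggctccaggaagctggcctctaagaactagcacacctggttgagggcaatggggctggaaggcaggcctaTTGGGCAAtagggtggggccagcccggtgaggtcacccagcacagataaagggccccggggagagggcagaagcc
The windows held 2 matches for Ngp, 0 for Camp and 1 for Ltf. Both strands of the 250 bases were searched, and 9.55% of 27025 promoters held these letters, as did 7.87% of 10134 promoters of tested genes. Among secondary granule genes with a promoter entry, 3 of 7 had a match (Ltf, Ngp and Lcn2). Among the mature neutrophil genes, 5 of 17 did (Ly6g, S100a9, Clec4e, Mmp8 and Retnlg). A match in letters is a description and not a bound site.

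Ngp, the neutrophilic granule protein, had 28.3 and 71.4 RPKM in the mutant-labelled lungs, against 5.14, 1.20, 10.6 and 1.22 RPKM in the wild-type lungs. Both mutant-labelled lungs lay above every wild-type lung, and the wild-type lungs themselves differed widely (log2 difference 3.41, SE 0.77). Camp, the cathelicidin precursor of an antimicrobial peptide, had 9.92 and 24.4 RPKM in the mutant-labelled lungs, against 2.47, 0.819, 3.59 and 0.645 RPKM in the wild-type lungs (log2 difference 2.66, SE 0.52). Ltf, lactoferrin, which binds iron, had 24.9 and 27.4 RPKM in the mutant-labelled lungs, against 2.14, 10.04, 13.4 and 11.5 RPKM in the wild-type lungs. Its difference was 1.61 (SE 0.61) and 1.02 without wild-type lungs 1 and 2, since wild-type lung 1 was far below the rest. Glands of the airway also make lactoferrin.

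Cd177, a surface and granule glycoprotein of neutrophils, had 15.7 and 7.99 RPKM in the mutant-labelled lungs, against 3.67, 4.22, 7.52 and 3.51 RPKM in the wild-type lungs. Wild-type lung 3 came close to mutant-labelled lung 2, and the difference was 1.15 (SE 0.34), or 0.7 with mutant-labelled lung 1 left out. Pglyrp1, a peptidoglycan-binding granule protein, had 31.8 and 29.0 RPKM in the mutant-labelled lungs, against 15.9, 19.4, 18.9 and 17.6 RPKM in the wild-type lungs. It was among the tightest differences of all, 0.73 (SE 0.09, limma adjusted p = 0.364). Of the 8 tested secondary granule genes all 8 lay above 0, with a median of 1.07, and 5 were separated (Ngp, Camp, Ltf, Cd177 and Pglyrp1). The background is 55.7% of genes above 0 and 7.50% separated upward. As a list these genes overlapped between groups. Their median from the wild-type mean was 1.66 and 0.68 in mutant-labelled lungs 1 and 2, against −0.21, −0.31, 0.75 and −0.49 in the wild-type lungs. Their sum was 883 and 347 RPKM in the mutant-labelled lungs, against 151, 191, 971 and 160 RPKM in the wild-type lungs, most of it Chil3 and Lcn2. With mutant-labelled lung 1 left out the median difference was 0.68.

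The remaining 3, Lcn2, Chil3 and Orm1, overlapped between groups. Lcn2 (lipocalin 2, which sequesters bacterial siderophores) had 156 and 39.4 RPKM in the mutant-labelled lungs, against 23.5, 46.2, 175 and 25.3 RPKM in the wild-type lungs. These genes are also made by macrophages, liver or airway epithelium and stand on other lists too. Of 5 primary granule genes, Mpo, Elane, Ctsg and Ms4a3 did not pass the filter on low values. Prtn3, proteinase 3, passed only through the mutant-labelled lungs, with 1.06 and 1.33 RPKM there, against 0.589, 0.608, 0.446 and 0.405 RPKM in the wild-type lungs. Its exons overlap an antisense gene, and strand was not stated.

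The mature neutrophil genes pointed the same way. All 20 tested members lay above 0, with a median of 0.71, 14 were separated upward and 13 had an unadjusted p under 0.05. Ly6g and Clec4e reached 1 RPKM only in the mutant-labelled lungs, as did 17 genes in all, and such a gene is separated upward by the filter itself. Without this pair, 12 of 18 were separated and 11 had an unadjusted p under 0.05, against 7.50% and 2.54% of all genes upward. Ly6g, the surface antigen that defines mouse neutrophils, had 2.14 and 3.74 RPKM in the mutant-labelled lungs, against 0.323, 0.220, 0.403 and 0.223 RPKM in the wild-type lungs. Its difference was 1.58 (SE 0.17, limma adjusted p = 0.364). Retnlg, resistin-like gamma, had 40.5 and 61.0 RPKM in the mutant-labelled lungs, against 11.8, 15.1, 13 and 9.27 RPKM in the wild-type lungs (log2 difference 1.95, SE 0.22). For both genes the lower mutant-labelled lung stood well clear of the highest wild-type lung.

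The S100a8 and S100a9 proteins pair as calprotectin, the main cytosolic protein of neutrophils. S100a8 had 101 and 207 RPKM in the mutant-labelled lungs, against 33.8, 35.2, 50.1 and 23 RPKM in the wild-type lungs (log2 difference 2.05, SE 0.37). S100a9 had 243 and 511 RPKM in the mutant-labelled lungs, against 87.8, 85.5, 129 and 61.7 RPKM in the wild-type lungs (log2 difference 1.99, SE 0.37). In both, mutant-labelled lung 2 was the highest and wild-type lung 3 was the highest of its group. The stefin gene Stfa2l1, a cysteine protease inhibitor, had 3.87 and 5.71 RPKM in the mutant-labelled lungs, against 0.849, 2.0, 2.10 and 1.12 RPKM in the wild-type lungs. Stefins form a cluster of near-identical copies, so the reads of each copy are uncertain.

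The matrix proteases of neutrophil granules followed the same order. Mmp8, a collagenase, had 4.99 and 9.21 RPKM in the mutant-labelled lungs, against 1.73, 1.84, 2.51 and 1.15 RPKM in the wild-type lungs (log2 difference 1.5, SE 0.26). Mmp9, a gelatinase, had 5.85 and 12.5 RPKM in the mutant-labelled lungs, against 3.79, 3.67, 4.57 and 2.95 RPKM in the wild-type lungs (log2 difference 1.03, SE 0.27). Differences were smaller for the receptors. Cxcr2, the receptor for the chemokines that draw neutrophils, had 7.12 and 10.9 RPKM in the mutant-labelled lungs, against 5.60, 6.02, 5.10 and 4.34 RPKM in the wild-type lungs (log2 difference 0.66, SE 0.18). With mutant-labelled lung 2 left out the differences of Mmp9 and Cxcr2 were 0.54 and 0.38.

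Fpr2, a receptor for formylated bacterial peptides that shares exons with Fpr3 in the annotation, had 8.12 and 9.91 RPKM in the mutant-labelled lungs, against 5.28, 4.34, 5.44 and 5.35 RPKM in the wild-type lungs (log2 difference 0.71, SE 0.11). The cytokine gene Il1b had 5.94 and 10.5 RPKM in the mutant-labelled lungs, against 3.50, 3.84, 4.88 and 2.22 RPKM in the wild-type lungs (log2 difference 0.99, SE 0.28), a difference of 0.62 with mutant-labelled lung 2 left out. In both the groups were separated. Csf3r, the receptor for granulocyte colony-stimulating factor, was high in 1 lung alone: it had 9.05 and 18.8 RPKM in the mutant-labelled lungs, against 8.59, 9.20, 9.80 and 6.35 RPKM in the wild-type lungs.

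Some listed genes ran against this order. Cxcr1 had 4.54 and 0.963 RPKM in the mutant-labelled lungs, against 0.456, 0.602, 5.79 and 0.359 RPKM in the wild-type lungs. Clec4d, a C-type lectin, had 6.96 and 3.91 RPKM in the mutant-labelled lungs, against 1.95, 2.24, 7.76 and 1.59 RPKM in the wild-type lungs. For both genes wild-type lung 3 was the highest of all 6.

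Summed over the 20 tested mature neutrophil genes, the level was 509 and 974 RPKM in the mutant-labelled lungs, against 236, 230, 306 and 203 RPKM in the wild-type lungs. In the mutant-labelled lungs most of this sum was S100a8 and S100a9. The median difference of the list from the wild-type mean was 0.60 and 1.0 in mutant-labelled lungs 1 and 2, against −0.01, 0.01, 0.22 and −0.24 in the wild-type lungs. It was 0.60 with mutant-labelled lung 2 left out, 1.08 with lung 1 left out and 0.72 without wild-type lungs 1 and 2. Red cell genes, which track blood left in the tissue, did not follow the labels. Hba-a1, alpha globin, whose near-identical copy Hba-a2 shares its reads, had 157 and 450 RPKM in the mutant-labelled lungs, against 82.1, 105, 467 and 150 RPKM in the wild-type lungs. Mutant-labelled lung 2 and wild-type lung 3 were the high ones. The part of trapped blood in the neutrophil values was not tested.

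Ligands that attract neutrophils gave no separated gene. Of 12 listed, 6 passed the filter, 4 lay above 0 and the median was 0.15. It was −0.38 with mutant-labelled lung 1 left out and 0.06 without wild-type lungs 1 and 2. Cxcl1 and Cxcl2, the main CXCR2 ligands, did not pass it: Cxcl1 had 1.95 and 0.223 RPKM in the mutant-labelled lungs, against 0.250, 0.197, 0.763 and 0.124 RPKM in the wild-type lungs. Cxcl5 had 3.95 and 0.684 RPKM in the mutant-labelled lungs, against 0.578, 1.12, 5.02 and 0.238 RPKM in the wild-type lungs, high in 1 lung of each group. Cxcl15, a lung epithelial chemokine, had 617 and 446 RPKM in the mutant-labelled lungs, within or below the wild-type range of 512 to 678 RPKM.

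Monocyte genes showed less. Of 8 classical monocyte genes 6 lay above 0, with a median of 0.30, and Ccr2, the receptor that brings monocytes into tissue, was the separated one. It had 9.10 and 14.2 RPKM in the mutant-labelled lungs, against 7.16, 8.19, 8.48 and 6.69 RPKM in the wild-type lungs (log2 difference 0.53, SE 0.17). With mutant-labelled lung 2 left out the list median was 0.03 and the Ccr2 difference 0.23. The 1 gene of 8 compares with 7.50% of all genes separated upward. Of 12 non-classical monocyte genes 9 lay above 0, and 3 were separated: Pglyrp1, Treml4 and Cd300e. Their median of 0.13 was 0.21 without wild-type lungs 1 and 2 and close to 0 with mutant-labelled lung 2 left out. Treml4, a receptor of patrolling monocytes, had 4.19 and 3.77 RPKM in the mutant-labelled lungs, against 2.92, 2.64, 3.36 and 3.20 RPKM in the wild-type lungs.

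Outside the lists, Siglece, an inhibitory sialic acid receptor of myeloid cells, had 3.39 and 4.01 RPKM in the mutant-labelled lungs, against 2.42, 2.50, 2.41 and 2.37 RPKM in the wild-type lungs (log2 difference 0.45, SE 0.07). Ifitm6, an interferon-induced transmembrane family gene, had 8.49 and 19.7 RPKM in the mutant-labelled lungs, against 5.71, 6.34, 4.70 and 4.22 RPKM in the wild-type lungs (log2 difference 1.18, SE 0.31), or 0.62 with mutant-labelled lung 2 left out. The groups did not overlap in either. H2-Bl, a class I histocompatibility gene of a family of near-identical copies, had 32.3 and 107 RPKM in the mutant-labelled lungs, against 31.5, 9.98, 13.7 and 11.3 RPKM in the wild-type lungs. Wild-type lung 1 nearly reached mutant-labelled lung 1 there.

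Interferon response genes lay above 0 in 16 of 19, with a median of 0.14, and 2 (10.5%) were separated, against 7.50% of all genes. The median from the wild-type mean was −0.08 and 0.26 in mutant-labelled lungs 1 and 2, so its sign rests on lung 2, and the difference was 0.23 without wild-type lungs 1 and 2. Cxcl10, a chemokine induced by interferon gamma, had 1.76 and 1.40 RPKM in the mutant-labelled lungs, against 0.840, 1.05, 0.841 and 0.773 RPKM in the wild-type lungs. Oas1a, an RNA sensor enzyme, had 4.04 and 3.67 RPKM in the mutant-labelled lungs, against 2.44, 3.38, 3.11 and 3.19 RPKM in the wild-type lungs.

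**Figure D2:**
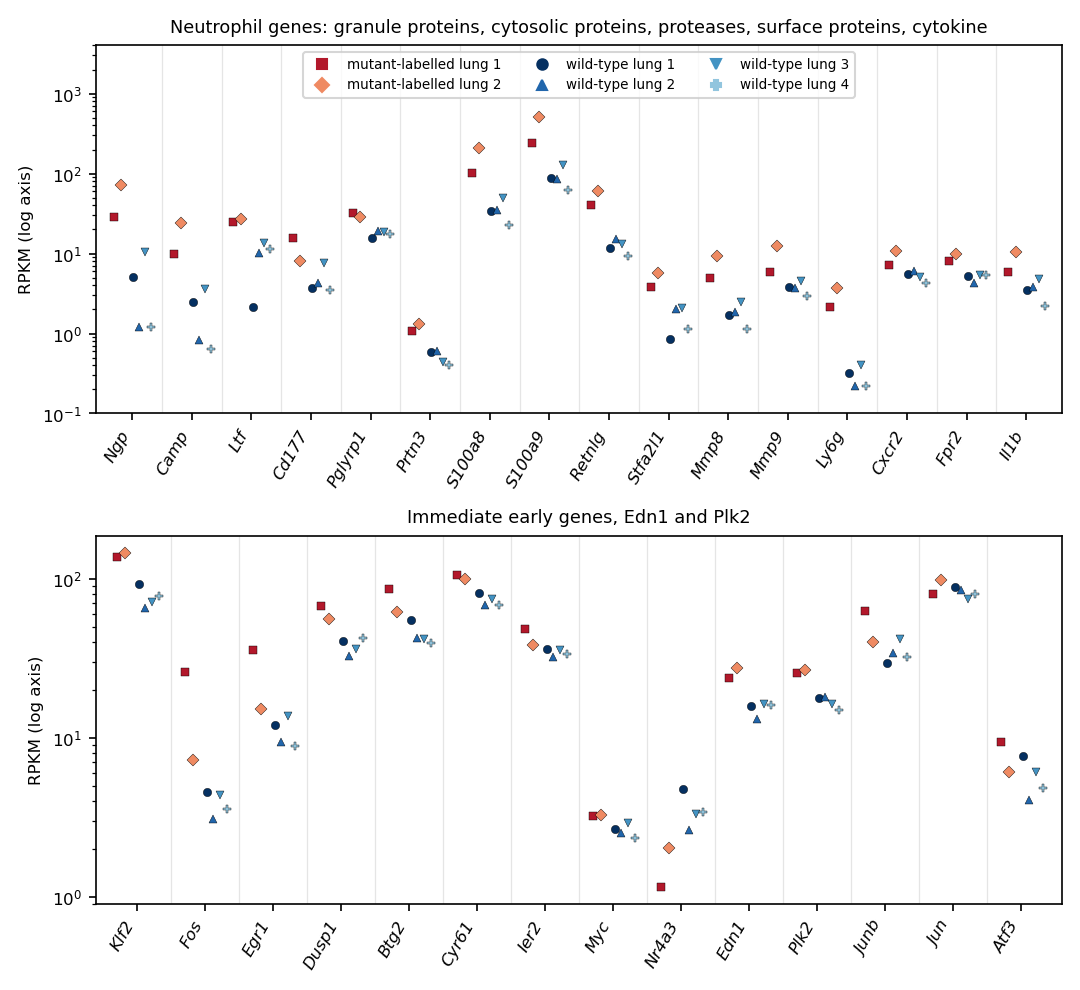
RPKM (log axes) of 16 neutrophil genes (upper panel) and of 12 immediate early genes with Edn1 and Plk2 (lower panel) in each of the 6 lungs, 1 point per lung, mutant-labelled lungs left of wild-type lungs within each gene. In the upper panel both mutant-labelled lungs lie above the wild-type lungs for every gene shown; in the lower panel Nr4a3 lies below and Junb, Jun and Atf3 overlap.

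Immediate early genes formed the second group. These genes are transcribed within minutes of a stimulus without new protein synthesis, and their RNA is short-lived. Of 24 tested, 17 lay above 0 with a median of 0.22, 8 were separated upward and 1 downward, and 9 had an unadjusted p under 0.05 upward. Over all genes 55.7% lay above 0, 7.50% were separated upward, 4.12% downward, and 2.54% had such a p upward. The upstream bases of 4 of them are shown because these run from Fos, with mutant-labelled lungs far apart, to Klf2, with mutant-labelled lungs close together. Conventions are as above, except that capitals mark TGACGT or its reverse complement ACGTCA, the core letters bound by CREB and ATF factors.
Fos (chr12:85473640-85473889, plus strand): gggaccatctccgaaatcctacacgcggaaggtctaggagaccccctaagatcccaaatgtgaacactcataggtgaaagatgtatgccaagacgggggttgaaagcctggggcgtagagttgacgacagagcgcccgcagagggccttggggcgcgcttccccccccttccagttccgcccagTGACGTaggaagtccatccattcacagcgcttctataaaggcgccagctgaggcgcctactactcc
Dusp1 (chr17:26508473-26508722, minus strand): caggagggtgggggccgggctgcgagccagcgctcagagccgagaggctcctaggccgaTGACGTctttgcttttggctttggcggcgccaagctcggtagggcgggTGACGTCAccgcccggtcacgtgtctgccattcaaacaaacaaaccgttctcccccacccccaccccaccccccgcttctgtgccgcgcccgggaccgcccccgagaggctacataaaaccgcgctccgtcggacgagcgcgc
Btg2 (chr1:134079156-134079405, minus strand): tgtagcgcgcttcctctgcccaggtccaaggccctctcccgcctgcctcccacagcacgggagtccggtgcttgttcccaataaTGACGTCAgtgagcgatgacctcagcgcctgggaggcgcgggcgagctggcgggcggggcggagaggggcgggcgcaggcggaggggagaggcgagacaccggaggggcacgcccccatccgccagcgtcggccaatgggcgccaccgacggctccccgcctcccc
Klf2 (chr8:72318812-72319061, plus strand): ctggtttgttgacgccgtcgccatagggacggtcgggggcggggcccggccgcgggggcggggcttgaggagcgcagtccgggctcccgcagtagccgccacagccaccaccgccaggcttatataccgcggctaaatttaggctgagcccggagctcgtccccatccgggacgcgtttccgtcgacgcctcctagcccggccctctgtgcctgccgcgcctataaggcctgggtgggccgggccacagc
The Fos window held 1 match, Dusp1 3, Btg2 2 and Klf2 0; in Dusp1 and Btg2 a match on 1 strand overlaps a match on the other. The share was 6.56% of all 27025 promoters and 9.75% of the 10134 of tested genes. Among the immediate early genes with a promoter entry it was 5 of 18: Fos, Atf3, Dusp1, Btg2 and Nr4a3. The letters therefore occur both in genes higher in the mutant-labelled lungs and in Nr4a3, which was lower.

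Klf2 encodes a transcription factor that blood flow induces in endothelium. It had 137 and 146 RPKM in the mutant-labelled lungs, against 92.5, 65.3, 71.3 and 78.5 RPKM in the wild-type lungs. The mutant-labelled lungs were close together and clear of all wild-type lungs (log2 difference 0.88, SE 0.14). Fos, a subunit of the AP-1 transcription factor, differed far more between the mutant-labelled lungs, with 26.0 and 7.2 RPKM there, against 4.57, 3.10, 4.35 and 3.55 RPKM in the wild-type lungs. Its difference of 1.61 (SE 0.44) was 2.47 with mutant-labelled lung 2 left out and 0.76 with lung 1 left out.

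The zinc finger factor Egr1 had 35.7 and 15.2 RPKM in the mutant-labelled lungs, against 12, 9.35, 13.7 and 8.90 RPKM in the wild-type lungs, and again lung 1 was far above lung 2 (log2 difference 1.05, SE 0.33, and 0.46 with lung 1 left out). Dusp1, a phosphatase that switches off MAP kinases, had 67.0 and 56.1 RPKM in the mutant-labelled lungs, against 40.5, 32.5, 35.9 and 42.7 RPKM in the wild-type lungs (log2 difference 0.69, SE 0.13). Btg2, an antiproliferative cofactor of mRNA decay, had 86.4 and 62.3 RPKM in the mutant-labelled lungs, against 55.1, 42.7, 41.9 and 39.6 RPKM in the wild-type lungs (log2 difference 0.71, SE 0.18). The 3 genes kept both mutant-labelled lungs above all wild-type lungs, as did Ier2 and Myc.

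Cyr61, a matricellular protein and YAP target, had 106 and 99.5 RPKM in the mutant-labelled lungs, against 81.5, 68.0, 74.3 and 68.2 RPKM in the wild-type lungs (log2 difference 0.49, SE 0.09). Listed members of the AP-1 family other than Fos were not separated. For Fosl2 the mutant-labelled lungs lay on opposite sides of all wild-type lungs, and the others overlapped between groups. Junb had 62.9 and 40.1 RPKM in the mutant-labelled lungs, against 29.6, 34.2, 41.9 and 32.4 RPKM in the wild-type lungs. Jun had 80.3 and 98.4 RPKM in the mutant-labelled lungs, inside or above the wild-type range of 75.2 to 89.1 RPKM.

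The single member lower without overlap was Nr4a3, an orphan nuclear receptor. It had 1.15 and 2.03 RPKM in the mutant-labelled lungs, against 4.78, 2.62, 3.32 and 3.40 RPKM in the wild-type lungs (log2 difference −0.81, SE 0.21). Its relatives Nr4a1 and Nr4a2 overlapped, with differences of −0.19 and −0.24. The order of the lungs over the whole list was not that of the neutrophil genes. The immediate early median from the wild-type mean was 0.31 and 0.15 in mutant-labelled lungs 1 and 2, against 0.11, −0.14, −0.01 and −0.04 in the wild-type lungs, so mutant-labelled lung 2 was barely above wild-type lung 1. How the lungs were handled before freezing was not stated, and its part in these values was not tested.

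Among glucocorticoid response genes, induced by the adrenal stress hormone, 5 of 15 lay above 0, with a median of −0.20, and 2 were separated downward, against 4.12% of all genes. With mutant-labelled lung 2 left out the median was −0.09. Klf9, a hormone-induced transcription factor, had 46.3 and 53.8 RPKM in the mutant-labelled lungs, against 67.7, 55.4, 67.5 and 73.4 RPKM in the wild-type lungs (log2 difference −0.39, SE 0.13). The other was Sult1a1, a sulfotransferase, with 26.7 and 28.2 RPKM in the mutant-labelled lungs, against 37.7, 30.6, 31.4 and 31.4 RPKM in the wild-type lungs. Dusp1 is also on this list and was the member separated upward. Per1, a clock gene that glucocorticoids induce, had 15.9 and 21.4 RPKM in the mutant-labelled lungs, against 26.9, 21.0, 36.7 and 41.0 RPKM in the wild-type lungs.

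Angptl4, an inhibitor of lipoprotein lipase, had 5.03 and 2.61 RPKM in the mutant-labelled lungs, against 8.12, 7.05, 4.70 and 11.5 RPKM in the wild-type lungs. Both genes overlapped through 1 wild-type lung. Clock genes varied within the wild-type group too. Dbp, a clock output factor that shares exons with an antisense gene, had 44.1 and 21.7 RPKM in the mutant-labelled lungs, against 16.2, 10.1, 26.5 and 30.6 RPKM in the wild-type lungs. Of 18 clock genes, Nfil3 was the separated one, downward, against 4.12% of all genes. It had 3.08 and 3.75 RPKM in the mutant-labelled lungs, against 3.91, 4.30, 3.97 and 3.84 RPKM in the wild-type lungs. The hour of collection was not stated, and its part was not tested.

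The genes with the smallest p-values were mostly modest and tight differences, set by close agreement within both groups. Hic1 (chr11:74978067-74983021, minus strand, mm9), a transcriptional repressor that keeps mesenchymal progenitors quiescent, had 9.38 and 9.25 RPKM in the mutant-labelled lungs, against 6.10, 6.31, 6.67 and 6.5 RPKM in the wild-type lungs. Its log2 difference was 0.48 (SE 0.06, limma adjusted p = 0.364). Atp9a, a membrane ATPase of the endosome, had 18.4 and 18.6 RPKM in the mutant-labelled lungs, against 12.7, 12.3, 13.4 and 13.4 RPKM in the wild-type lungs (log2 difference 0.48, SE 0.06). For both, the gap between groups was several times the range within either group.

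Uba6, a ubiquitin-activating enzyme, had 4.02 and 4.07 RPKM in the mutant-labelled lungs, against 2.50, 2.71, 2.43 and 2.33 RPKM in the wild-type lungs (log2 difference 0.53, SE 0.07). S100a4, a calcium-binding protein of fibroblasts and leukocytes, had 55.6 and 56.4 RPKM in the mutant-labelled lungs, against 39.3, 42.5, 40.4 and 38.4 RPKM in the wild-type lungs (log2 difference 0.47, SE 0.06). Plk2, a stress-induced kinase, had 25.7 and 26.7 RPKM in the mutant-labelled lungs, against 17.9, 18.2, 16.2 and 14.9 RPKM in the wild-type lungs (log2 difference 0.62, SE 0.09). In all 3 the mutant-labelled lungs were nearly equal.

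Edn1, which encodes the vasoconstrictor endothelin 1, had 23.7 and 27.6 RPKM in the mutant-labelled lungs, against 15.8, 13.03, 16.2 and 16.0 RPKM in the wild-type lungs (log2 difference 0.71, SE 0.11). Fam43a, a gene of little known function, had 19.2 and 17.0 RPKM in the mutant-labelled lungs, against 13.6, 14.0, 13.4 and 13.6 RPKM in the wild-type lungs. An unnamed transcript in the same range of p-values, RP23-326D6.5, had 43.3 and 42.7 RPKM in the mutant-labelled lungs, against 30.2, 32.4, 31.8 and 30.4 RPKM in the wild-type lungs. It is not in the mm9 annotation used for positions.

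Myofibroblast and smooth muscle genes lay below 0 in 13 of 15, with a median of −0.09, but the 2 separated members were higher, against 7.50% of all genes. Tgfbi, a matrix protein induced by TGF-beta, had 30.8 and 39.2 RPKM in the mutant-labelled lungs, against 26.0, 26.8, 29.0 and 27.0 RPKM in the wild-type lungs. Wnt5a, a non-canonical Wnt ligand of lung mesenchyme, had 4.67 and 4.97 RPKM in the mutant-labelled lungs, against 3.58, 3.20, 4.0 and 4.39 RPKM in the wild-type lungs, and its difference of 0.29 was 0.16 without wild-type lungs 1 and 2. Of 17 cell cycle genes 14 lay above 0, with a median of 0.12, and 7 were separated upward, against 7.50% of all genes. Under median-ratio scaling 5 were, against 5.94%. Cdk1, the mitotic kinase, had 1.12 and 1.09 RPKM in the mutant-labelled lungs, against 0.781, 0.747, 0.724 and 0.811 RPKM in the wild-type lungs, and passed the filter only through the mutant-labelled lungs. Without it 6 of 16 were separated. Cdc20, an activator of the anaphase-promoting complex, had 2.82 and 2.85 RPKM in the mutant-labelled lungs, against 2.15, 2.61, 2.27 and 2.16 RPKM in the wild-type lungs. The median of this list was 0.03 with mutant-labelled lung 2 left out.

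Ankrd37, a gene induced under hypoxia, had 3.58 and 3.32 RPKM in the mutant-labelled lungs, against 2.74, 2.15, 2.05 and 1.91 RPKM in the wild-type lungs. It was the single separated gene of 13 hypoxia response genes (7.69%), close to the 7.50% of all genes separated upward. The median of the list was 0.04, and 0.01 without wild-type lungs 1 and 2.

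On the values as deposited 565 genes were separated downward and 1027 upward, an imbalance that nearly vanished under median-ratio scaling. Cmya5, a protein of striated muscle, had 2.16 and 2.05 RPKM in the mutant-labelled lungs, against 3.25, 2.94, 2.84 and 3.28 RPKM in the wild-type lungs (log2 difference −0.39, SE 0.07, limma adjusted p = 0.853). Tomm34, a cochaperone of mitochondrial import, had 11.2 and 11.4 RPKM in the mutant-labelled lungs, against 13.8, 13.6, 14.1 and 14.5 RPKM in the wild-type lungs (log2 difference −0.29, SE 0.06). Esm1, an endothelial proteoglycan, had 15.4 and 14.4 RPKM in the mutant-labelled lungs, against 18.4, 23.1, 20.8 and 21.6 RPKM in the wild-type lungs (log2 difference −0.46, SE 0.09). These had the smallest p-values among annotated lower genes.

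Fblim1, a focal adhesion protein, had 14.5 and 15.7 RPKM in the mutant-labelled lungs, against 18.4, 17.9, 19.4 and 19.6 RPKM in the wild-type lungs. Serpina3f, a serine protease inhibitor of a cluster of close copies, had 4.35 and 5.39 RPKM in the mutant-labelled lungs, against 6.95, 8.65, 7.30 and 6.78 RPKM in the wild-type lungs. The nuclear splicing-related genes Pnisr and Pnn lay below all wild-type lungs as well, with differences of −0.28 and −0.27. Angptl6 and Deptor, at −0.28 and −0.26, share exons with antisense genes.

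Larger but looser differences were found for a few matrix and vessel genes. Olfm2, a secreted olfactomedin of smooth muscle, had 5.17 and 1.95 RPKM in the mutant-labelled lungs, against 7.26, 9.73, 8.43 and 6.48 RPKM in the wild-type lungs. Its difference of −1.06 (SE 0.30) was −0.53 with mutant-labelled lung 2 left out and −1.59 with lung 1 left out. Adamtsl2, a microfibril-associated regulator of TGF-beta, had 5.88 and 9.08 RPKM in the mutant-labelled lungs, against 10.3, 10.4, 12.2 and 10.7 RPKM in the wild-type lungs (log2 difference −0.51, SE 0.16, and −0.23 with lung 1 left out). Heyl, a Notch target of vascular smooth muscle, had 8.41 and 11.9 RPKM in the mutant-labelled lungs, against 13.4, 19.1, 13.1 and 13.1 RPKM in the wild-type lungs. Dpep1, a dipeptidase on capillaries to which neutrophils adhere in mice, had 41.6 and 52.5 RPKM in the mutant-labelled lungs, against 65.0, 58.8, 63.0 and 54.1 RPKM in the wild-type lungs (log2 difference −0.36, SE 0.12, and −0.19 with lung 1 left out).

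**Figure D3:**
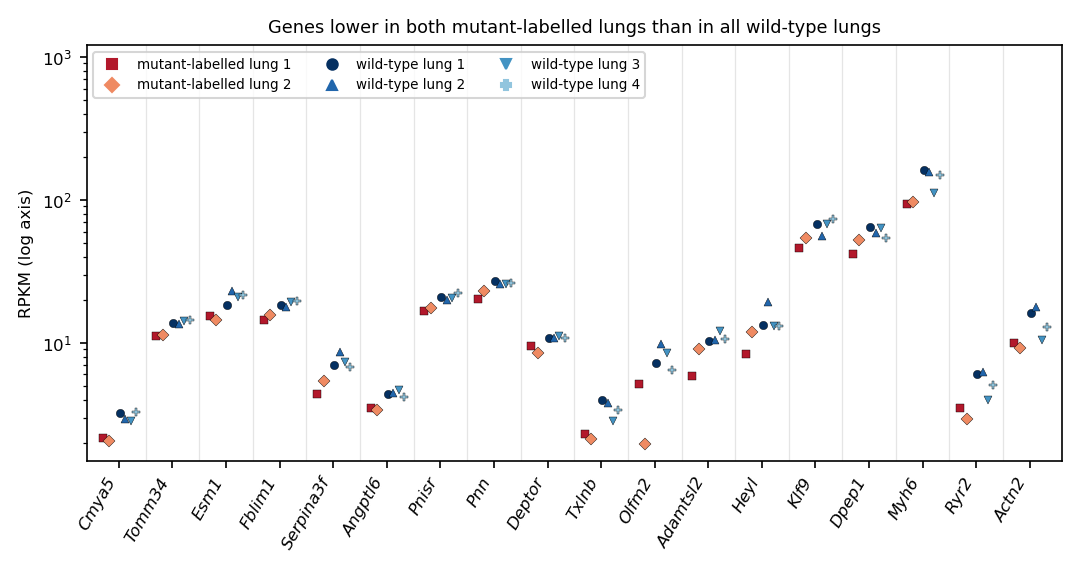
RPKM (log axis) of 18 genes whose mutant-labelled values both lay under the 4 wild-type values, 1 point per lung, mutant-labelled lungs left of wild-type lungs. For Myh6, Ryr2 and Actn2 wild-type lung 3 lies close to the mutant-labelled lungs.

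Heart and skeletal muscle genes were low in both mutant-labelled lungs. The walls of pulmonary veins carry cardiac muscle in mice, and pieces of atrium can also stay attached to a dissected lung. Of 17 tested, 15 lay below 0, with a median of −0.40, and 4 were separated, against 4.12% of all genes separated downward. Myh6, the cardiac alpha myosin heavy chain, had 93.6 and 96.4 RPKM in the mutant-labelled lungs, against 161, 156, 111 and 149 RPKM in the wild-type lungs (log2 difference −0.58, SE 0.16). Ryr2, the cardiac calcium release channel, had 3.50 and 2.93 RPKM in the mutant-labelled lungs, against 6.00, 6.26, 3.98 and 5.03 RPKM in the wild-type lungs. The others were Actn2 and Ttn, with differences of −0.51 and −0.33, or −0.26 and −0.21 without wild-type lungs 1 and 2.

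Over the whole list wild-type lung 3 was as low: the median from the wild-type mean was −0.405 and −0.409 in mutant-labelled lungs 1 and 2, and −0.518 in wild-type lung 3. Tnni3, cardiac troponin I, had 50.3 and 50.5 RPKM in the mutant-labelled lungs, against 86.2, 74.0, 42.3 and 66.2 RPKM in the wild-type lungs. The sum over the list was 600 and 595 RPKM in the mutant-labelled lungs, against 1033, 942, 563 and 806 RPKM in the wild-type lungs. The 2 wild-type lungs with Y-linked transcripts were the highest, and without them the median difference was −0.16.

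Separated genes also lay together in a few chromosomal neighbourhoods. Among 13232 windows of 8 neighbouring tested genes, those with at least 5 separated upward merged into 4 regions, and 0 windows had as many separated downward. This search was made after the values had been seen, and on the values as deposited. On those, 7.50% of all genes were separated upward and 4.12% downward, against 5.94% and 5.64% under median-ratio scaling. Upward and downward windows are therefore not comparable here. How many windows would reach 5 by chance alone was not tested. The longest of the 4 regions, on chromosome 13, held 21 tested genes, of which 13 were separated. Most of it was a zinc finger cluster from Zfp712 to Zfp273 (chr13:67139530-67927937, mm9), where all 17 tested genes lay above 0 with a median of 0.12, 12 were separated and 7 had an unadjusted p under 0.05. The first 11, from Zfp712 to Zfp58, had a median of 0.24, and 9 of them were separated. The other 6, from Zfp729b to Zfp273, had differences of 0.05 to 0.11, and 3 of them overlapped. Zfp712 is included in the counts of separated genes and of small p-values. It reached 1 RPKM only in the mutant-labelled lungs and is thus separated upward by the filter itself. KRAB zinc finger proteins of this kind silence transposable elements. Their genes are recent copies of each other, so reads can be split among them and the values of single genes are uncertain.

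Within the cluster, Zfp58 had 2.55 and 2.59 RPKM in the mutant-labelled lungs, against 2.20, 2.03, 1.90 and 1.98 RPKM in the wild-type lungs. Zfp759 had 1.33 and 1.15 RPKM in the mutant-labelled lungs, against 0.834, 0.839, 0.801 and 1.04 RPKM in the wild-type lungs. Zfp874b had 3.15 and 3.97 RPKM in the mutant-labelled lungs, against 3.09, 2.84, 2.59 and 2.42 RPKM in the wild-type lungs. The differences were small, 0.05 to 0.28 across the cluster, at levels of a few RPKM. Over all 298 tested genes with a Zfp symbol, a set also chosen after the values had been seen, 219 lay above 0 with a median of 0.06 and 73 (24.5%) were separated upward, against 7.50% of all genes. Under median-ratio scaling 64 (21.5%) were, against 5.94%. The 73 include Zfp712 and Zfp418, which reached 1 RPKM only in the mutant-labelled lungs.

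The second neighbourhood, on chromosome 11, held the Polycomb chromobox genes Cbx2 and Cbx8, both separated. Cbx8 had 2.40 and 1.91 RPKM in the mutant-labelled lungs, against 1.68, 1.44, 1.48 and 1.40 RPKM in the wild-type lungs. Cbx2 had 1.56 and 1.45 RPKM in the mutant-labelled lungs, against 0.946, 1.01, 1.20 and 1.20 RPKM in the wild-type lungs. The other 2 neighbourhoods, on chromosomes 7 and 2, began with zinc finger genes, Zfp954 and Zfp217. The separated genes on chromosome 7 include Zfp418, which the filter itself separates upward.

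Uba6, named above for its small p-value, lies on chromosome 5 with Cenpc1, Stap1 and Ythdc1 within chr5:86441068-87265684 (mm9). Ythdc1, a nuclear reader of m6A in RNA, had 11.7 and 12.3 RPKM in the mutant-labelled lungs, against 9.77, 9.30, 8.88 and 9.37 RPKM in the wild-type lungs (log2 difference 0.34, SE 0.06). Cenpc1, a centromere protein, had 4.24 and 4.81 RPKM in the mutant-labelled lungs, against 3.30, 3.10, 3.0 and 3.13 RPKM in the wild-type lungs (log2 difference 0.42, SE 0.07). Stap1 overlapped between groups.

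Genes near the alleles named in the labels and design text did not stand out by the share separated upward. Of 93 tested genes starting within 5 Mb of Tbx4, 64 lay above 0, with a median of 0.04. Of these 93, 7 were separated upward and 1 downward. Of 25 within 5 Mb of Ghr, 14 lay above 0, with a median of 0.01, and 2 were separated upward and 1 downward. Over all genes 55.7% lay above 0, with a median of 0.01, and 7.50% were separated upward and 4.12% downward. The share above 0 near Tbx4 was thus above that of all genes.

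The mutant-labelled lungs differed more from each other than any pair of wild-type lungs did. Between them 2022 genes differed by over 0.5 in log2(RPKM + 1) and 363 by over 1. Those counts were 894 and 151 for the widest wild-type pair, lungs 1 and 3, and 309 and 31 for the closest, lungs 2 and 4. Spearman's rho over genes was 0.965 between the mutant-labelled lungs and 0.980 to 0.990 between wild-type lungs. Lung 1 was nearest to wild-type lung 3 (0.984) and lung 2 to wild-type lung 1 (0.986). These correlations are across genes of pairs of libraries, and genes are not independent replicates.

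The 6 genes with the widest gap between a high lung 1 and a low lung 2, at a mean of at least 5 RPKM, were Mt2, Mt1, Igfbp5, C4b, Plet1 and Syt5. Mt2, a metallothionein, had 31.7 and 8.29 RPKM in the mutant-labelled lungs, against 19.7, 27.9, 23 and 20.9 RPKM in the wild-type lungs. Its relative Mt1 had 94.7 and 34.4 RPKM in the mutant-labelled lungs, against 57.1, 51.9, 64.7 and 63.7 RPKM in the wild-type lungs. Both encode proteins that bind zinc and copper. Igfbp5, an IGF-binding protein, had 157 and 61.8 RPKM in the mutant-labelled lungs, against 81.9, 118, 72.6 and 110 RPKM in the wild-type lungs. The complement gene C4b had 102 and 40.9 RPKM in the mutant-labelled lungs, against 56.0, 75.6, 74.1 and 65.8 RPKM in the wild-type lungs. Plet1, a surface protein of some epithelial cells, had 52.9 and 19.7 RPKM in the mutant-labelled lungs, against 20.9, 27.0, 47.8 and 23.8 RPKM in the wild-type lungs. Syt5, a synaptotagmin of secretory vesicles, had 22.5 and 8.45 RPKM in the mutant-labelled lungs, against 8.62, 13, 10.3 and 11.8 RPKM in the wild-type lungs. The matrix proteoglycan gene Dcn, chosen after its values were seen, had 100 and 46.1 RPKM in the mutant-labelled lungs, against 69.7, 58.6, 62.7 and 58.7 RPKM in the wild-type lungs. In each the wild-type lungs fill the gap between the mutant-labelled ones.

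Alveolar fibroblast genes went the opposite way in most members. Of 15 tested, 10 were above all wild-type lungs in lung 2 and below them in lung 1, against 14.1% of all genes, and 2 had the reverse. Tcf21, a transcription factor of lung fibroblasts, had 34.7 and 77.8 RPKM in the mutant-labelled lungs, against 62.5, 43.8, 58.6 and 57.0 RPKM in the wild-type lungs. Npnt, the basement membrane protein nephronectin, had 102 and 203 RPKM in the mutant-labelled lungs, against 166, 134, 144 and 157 RPKM in the wild-type lungs. Tbx4 itself had this pattern.

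Pericyte genes did the same in 6 of 12, among them Pdgfrb, the PDGF receptor of mural cells, with 24.4 and 54.0 RPKM in the mutant-labelled lungs, against 41.4, 32.9, 33.1 and 43.1 RPKM in the wild-type lungs. The pericyte-list gene Gucy1a3, a nitric oxide receptor subunit, had 21.2 and 53.1 RPKM in the mutant-labelled lungs, against 40.7, 30.3, 30.3 and 39.9 RPKM in the wild-type lungs. Capillary endothelial genes did so in 8 of 15, with Cdh5, VE-cadherin, at 164 and 283 RPKM in the mutant-labelled lungs, against 219, 213, 212 and 204 RPKM in the wild-type lungs. T cell genes did so in 7 of 13. Tcf7, a factor of naive T cells, had 11.2 and 29.2 RPKM in the mutant-labelled lungs, against 16.7, 13.7, 15.2 and 17.0 RPKM in the wild-type lungs. Ccr7, the lymph node homing receptor, had 7.73 and 19.8 RPKM in the mutant-labelled lungs, against 9.41, 10.8, 10.2 and 10.4 RPKM in the wild-type lungs. Among alveolar type 1 genes it was 5 of 14.

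The ciliated and club cell lists had their highest median of all lungs in mutant-labelled lung 1, and the alveolar type 2 list did not. Ciliated cell genes lay above 0 in 15 of 15, with a median of 0.31, yet none was separated. Foxj1, the master regulator of motile cilia, had 103 and 41.8 RPKM in the mutant-labelled lungs, against 33.0, 50.1, 53.8 and 64.6 RPKM in the wild-type lungs. The list median was 0.91 and −0.22 in mutant-labelled lungs 1 and 2, against −0.48, 0.05, 0.09 and 0.36 in the wild-type lungs, so its sign rests on lung 1, and the difference was 0.12 without wild-type lungs 1 and 2. Of 14 club cell genes, 4 had lung 1 above and lung 2 below all wild-type lungs, against 6.28% of all genes. The alveolar type 2 list median was 0.19 and −0.38 in mutant-labelled lungs 1 and 2, against −0.05, −0.06, 0.29 and −0.19 in the wild-type lungs. Wild-type lung 3 was thus the highest. Of its 14 genes, 3 had lung 1 above and lung 2 below all wild-type lungs. Sftpd, surfactant protein D and 1 of these 3, had 809 and 376 RPKM in the mutant-labelled lungs, against 487, 610, 796 and 451 RPKM in the wild-type lungs. Of 13 basal, goblet and neuroendocrine genes 0 passed the filter.

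**Figure D4:**
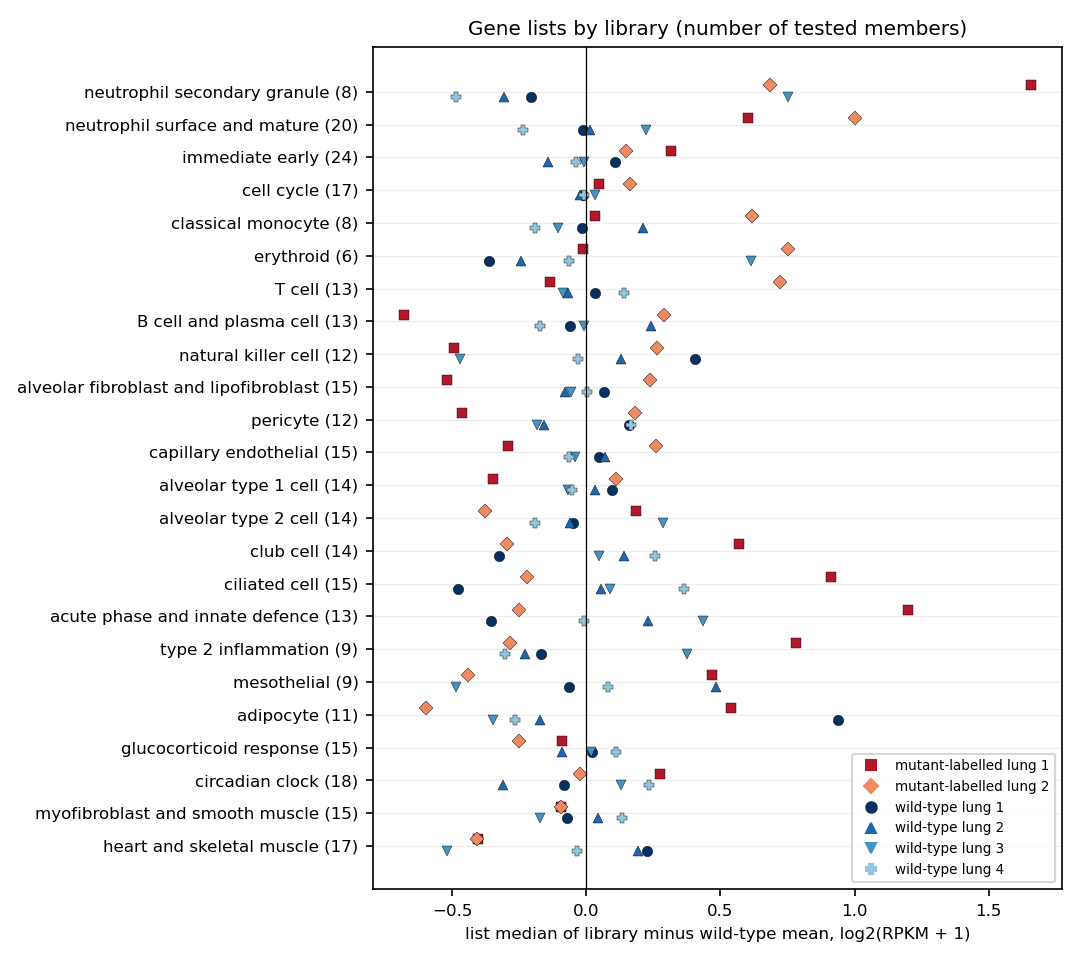
Median over the tested members of 24 gene lists of each lung's difference from the wild-type mean, in log2(RPKM + 1), with the number of tested members in brackets; mutant-labelled lungs are drawn above wild-type lungs in each row. Both mutant-labelled lungs lie above all wild-type lungs for the mature neutrophil, immediate early and cell cycle lists. For the cell cycle list this rests on Cdk1, which passed the filter only through the mutant-labelled lungs. Without it the median was 0.03 in mutant-labelled lung 1 and 0.04 in wild-type lung 3. Fibroblast, capillary, ciliated and acute phase lists split the mutant-labelled lungs.

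A further set of genes was high in 1 lung of each label. Chil3, a chitinase-like macrophage protein that shares exons with Chi3l4, had 610 and 145 RPKM in the mutant-labelled lungs, against 96.3, 108, 741 and 97.5 RPKM in the wild-type lungs. Ctsk, the protease cathepsin K, had 51.5 and 9.58 RPKM in the mutant-labelled lungs, against 10.2, 10.7, 57.5 and 12.5 RPKM in the wild-type lungs. Mmp12, macrophage elastase, had 11.9 and 2.31 RPKM in the mutant-labelled lungs, against 1.38, 1.72, 15.2 and 1.90 RPKM in the wild-type lungs. Mutant-labelled lung 1 and wild-type lung 3 were the high pair in all 3.

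The same pair was high for Atp6v0d2, a proton pump subunit of macrophages, with 21.1 and 6.10 RPKM in the mutant-labelled lungs, against 6.57, 6.56, 27.9 and 6.24 RPKM in the wild-type lungs. It was high again for Jchain, which joins IgA and IgM in plasma cells, with 99.9 and 33.5 RPKM in the mutant-labelled lungs, against 17.0, 11.4, 138 and 19.4 RPKM in the wild-type lungs. Chil4, a chitinase-like protein closely related to Chil3, had 30.8 and 7.56 RPKM in the mutant-labelled lungs, against 4.64, 5.08, 38.2 and 5.13 RPKM in the wild-type lungs. Lcn2, Cxcr1, Clec4d and Cxcl5, given above among the neutrophil genes, had the same 2 high lungs.

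Retnla, a resistin-like protein of type 2 inflammation, was high in 1 lung only, with 747 and 84.5 RPKM in the mutant-labelled lungs, against 30.0, 78.6, 84.2 and 87.9 RPKM in the wild-type lungs. Its fitted difference of 1.94 (SE 0.88) thus rests on lung 1. Clca1 and Itln1, secreted by mucous cells in type 2 inflammation, were highest in the same lung. Clca1 had 12.3 and 1.13 RPKM in the mutant-labelled lungs, against 0.0062, 0.396, 0.497 and 3.86 RPKM in the wild-type lungs. Itln1 had 6.59 and 0.0406 RPKM in the mutant-labelled lungs, against 0.0205, 0.0403, 2.21 and 0 RPKM in the wild-type lungs. The median of the 9 tested type 2 inflammation genes was 0.78 and −0.29 in mutant-labelled lungs 1 and 2, against −0.17, −0.23, 0.37 and −0.30 in the wild-type lungs.

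Adipocyte genes were high in another pair, mutant-labelled lung 1 and wild-type lung 1. Adipoq, the hormone adiponectin, had 9.25 and 3.46 RPKM in the mutant-labelled lungs, against 14.0, 4.75, 3.94 and 4.82 RPKM in the wild-type lungs. Mesothelial genes, which mark the lung's surface lining, varied likewise: Msln, mesothelin, had 33.8 and 14.9 RPKM in the mutant-labelled lungs, against 21.0, 31.2, 14.1 and 25.1 RPKM in the wild-type lungs. These tissues lie on or beside the lung, and how much of them each piece held was not stated.

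**Figure D5:**
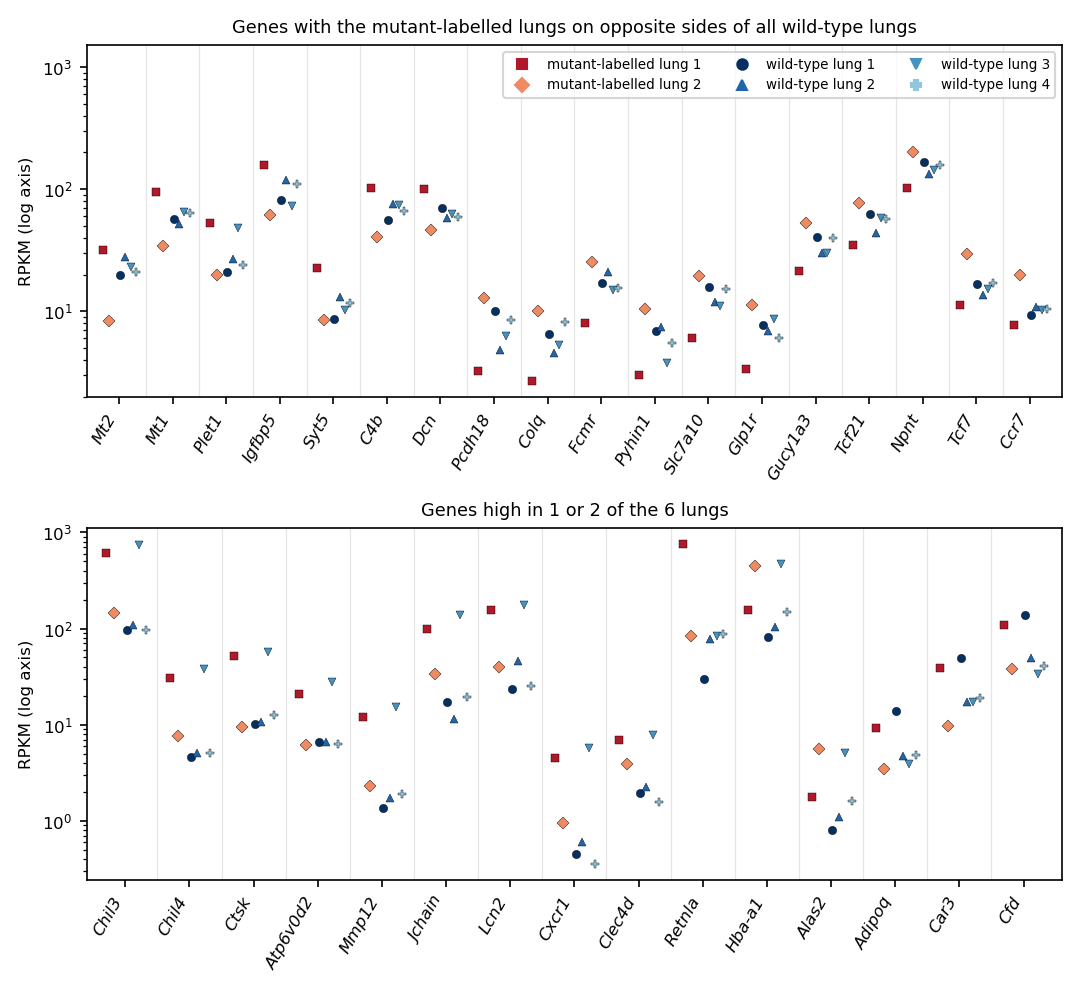
RPKM (log axes) of 18 genes with the mutant-labelled lungs on opposite sides of all wild-type lungs (upper panel) and of 15 genes high in 1 or 2 of the 6 lungs (lower panel), 1 point per lung, mutant-labelled lungs left of wild-type lungs. In the upper panel the wild-type points lie between the mutant-labelled points; in the lower panel mutant-labelled lung 1 and wild-type lung 3 share the high values for Chil3 to Clec4d.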

How the data were processed

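RNA of 6 whole lungs was measured. The authors deposited RPKM values per gene in 1 table, with no raw counts. TopHat2, HTSeq and mm9 are named per the submitters' processing notes; the sources used here do not give their versions, order, annotation or strand setting. The table names no unit: RPKM was read from the values, whose low steps scale with gene length. Of 21950 genes, 27 names that a spreadsheet had turned into dates were turned back.

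Differences were fitted with limma 3.58.1 (R 4.3.3, with trend) on log2(RPKM + 1) for 13701 genes reaching 1 RPKM in 2 or more libraries, adjusted by Benjamini and Hochberg over all of them, with no covariate. On this scale a fold change of a gene of low level is understated. Tables and figures used Python 3.11.15, pandas 2.3.3, numpy 2.4.6 and matplotlib 3.10.9. The fit was tested on simulated data of 13701 genes. It recovered 82% of 100 differences of 1 and 95% of 100 differences of 2 on the log2 scale, with 7 false calls. The simulated noise was independent between genes and of equal spread in both groups. The mutant-labelled lungs differed more from each other than any wild-type pair did. These shares therefore do not say which differences the comparison of these lungs could call. The 49 gene lists (733 entries, 727 found) and the comparison were chosen with earlier results of these data known. Genes named by rule are Tbx4, Ghr, Col1a1 and Col1a2, the 15 with the smallest p in each direction, the 10 largest separated differences in each direction at a mean of at least 5 RPKM, up to 4 members of each list with the smallest p, and the 6 widest gaps between the mutant-labelled lungs in each direction; the text names part of them. The other named genes, and the neighbourhood search, were chosen after their values were seen: besides these, among them Mmp9, Cxcr2, Il1b, Egr1, Nr4a3, Cbx2, Cbx8, the Zfp genes and the genes high in 1 or 2 lungs. Positions are GENCODE M1 (mm9), upstream sequences RefSeq (GRCm38.p6). Alternatives changed the pseudocount, the filter, the scaling, the treatment of Y-linked transcripts, the trend, a replicate block and 1 library at a time. The vesicle table was not used here, and some genes are not reported here.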

Additional observations from a re-analysis of the deposited data

Results flagged for a closer look

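Within the 4 wild-type lungs, 143 genes taken up in this account and 47 list medians were checked for an outlying lung. A lung was flagged when its distance to its nearest neighbour, as a share of the group's range, exceeded Dixon's 95% critical value. Chance alone gives this in about 1 in 20 groups chosen without regard to their values. Many of these genes were chosen after their values were seen, some because 1 or 2 lungs were high. Their flags therefore describe that choice and cannot be set against this share. In wild-type lung 3, high values were those of Chil3 (741 RPKM), Lcn2 (175 RPKM), Jchain (138 RPKM), Ctsk (57.5 RPKM), Chil4 (38.2 RPKM), Atp6v0d2 (27.9 RPKM), Mmp12 (15.2 RPKM), Clec4d (7.76 RPKM), Cxcr1 (5.79 RPKM) and Itln1 (2.21 RPKM).

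In wild-type lung 1, Cfd (137 RPKM), Car3 (49.7 RPKM), Pdgfra (42.4 RPKM), Sult1a1 (37.7 RPKM) and Adipoq (14.0 RPKM) were high and Retnla (30.0 RPKM) was low. The same lung was high in the median of the adipocyte genes (0.937 above the wild-type mean on the log2 scale) and of the eosinophil, basophil and mast cell genes (0.227). In wild-type lung 2, Heyl (19.1 RPKM) was high, and Edn1 (13 RPKM) and Fpr2 (4.34 RPKM) were low. In wild-type lung 4, Clca1 (3.86 RPKM) and Zfp759 (1.04 RPKM) were high.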

How the results depend on the processing

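Of the 1043 alternative values for 77 gene differences, 1041 kept their direction and their side of the adjusted threshold. Most of these 77 genes are separated genes, whose sign cannot change when libraries are left out. Their agreement was thus largely fixed by how the genes were chosen and does not measure robustness. Tbx4 (0.35) and Ghr (0.02), which are not separated, changed sign without mutant-labelled lung 1. Leaving out each library gave −0.44 to 0.35 for Tbx4 and −0.34 to 0.02 for Ghr. Of 667 alternative values for 48 list medians, 576 stayed within 1 SD of the wild-type spread and 91, in 38 of the lists, did not; 37 medians changed sign under at least 1 alternative, 31 of them on leaving out mutant-labelled lung 1 or 2. Median-ratio scaling gave 814 higher and 773 lower genes without overlap, against 1027 and 565. The count past an adjusted p of 0.05 from limma stayed at 0 except with no filter, where it was 1 (Gm17374). At an unadjusted p under 0.05, the 348 higher and 166 lower genes became 556 and 274 with no filter, 194 and 98 with a filter at 5 RPKM, and 205 and 94 without wild-type lungs 1 and 2, the libraries with Y-linked transcripts. Leaving out each library gave 225 to 1120 higher and 97 to 1348 lower: 1018 and 331 with mutant-labelled lung 1 left out, 1120 and 1348 with lung 2 left out, 97 lower without wild-type lung 1, 265 lower without wild-type lung 3, and 225 and 107 without wild-type lung 4. A lone mutant-labelled lung is there assumed to vary like the wild-type lungs.

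The 1027 genes separated upward and 565 downward became 641 and 369 with the filter at 5 RPKM, and 2272 and 1405 without wild-type lungs 1 and 2, where fewer lungs have to be passed. Leaving out each library gave 1229 to 4402 upward and 732 to 4194 downward, with 1673 and 1015 without wild-type lung 3. The 2795 genes on opposite sides became 5111 without wild-type lungs 1 and 2. With the replicate number as a replicate block, 218 genes were higher at an unadjusted p under 0.05, 54.2% of 402. The labels do not say that equal numbers share an animal or day, and the differences between libraries 1 and 2 of each group correlated at −0.351 across 13701 genes (2 pairs). The cause of these shifts was not tested.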
